A study of Mus musculus with 5 samples.

Results

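The 33 genes described here copy the genome or carry a cell from G1 into S phase, and were measured in sorted myogenic cells of fetal mouse limb muscle. The genes were taken by symbol from a list of replication factors and their partners. Their values did not enter that rule, but earlier results of these data were known when the list was chosen. All 33 were found among the 25873 named rows of the deposited table, and all 33 were among the 11543 genes tested, which had a mean of at least 1 RPKM (reads scaled to gene length and to the library total). No member passed the test in any of 3 comparisons, so their levels are given with the spread between libraries, and each difference with its size and interval.

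Before a chromosome is copied, each origin is licensed by loading the ring-shaped MCM helicase, a step that needs Cdc6 and Cdt1. At the G1/S transition cyclin E with its kinase and the E2F transcription factors switch on the program, Cdc45 and the GINS complex start the helicase, and polymerases follow with the sliding clamp PCNA. In fetal muscle, Pax7-expressing progenitors divide or leave the cell cycle to form fibres, and Notch signalling is known to hold them as progenitors.

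The cells came from C57BL/6J fetuses at E16.5 and were sorted as tdTomato-positive and lineage-negative. Every group carried Pax7-CreER, a tamoxifen-dependent Cre driven by the Pax7 gene, and the Rosa-tdTomato reporter, and mothers of every group took tamoxifen by mouth at 240 mg per kg for 2 days from E12.5. The 2 WT libraries had no further allele, the 1 Notch1 cKO library also carried floxed Notch1 (Notch1 f/f), and the 2 Notch2 cKO libraries carried floxed Notch2 (Notch2 f/f). Cre acts only in cells expressing Pax7 when tamoxifen is given, and the reporter marks those cells and their descendants, so progenitors and their differentiating offspring were sorted together. The libraries are named here by group and by the tag in their column names (Em2, Em3, Em4, Em8), and nothing in the labels says whether libraries of 1 group came from separate fetuses.

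Library totals, as recovered from the values, ran from 20740258 to 28827897 reads, and the members drew 487 to 21709 reads per library, with a median of 2953 against 720 for all genes tested. Notch1, the targeted gene, stood at 2.33 RPKM in the Notch1 cKO library against 7.26 and 13.5 in WT, a drop that passed the test (log2 fold change −1.72, SE 0.39, limma adjusted p = 0.0443). Notch2 stood at 3.35 and 2.03 RPKM in the Notch2 cKO libraries against 2.40 and 4.17 in WT and did not pass (limma adjusted p = 0.905), so its level did not set the libraries labelled Notch2 cKO apart from WT. That RPKM is over 10506 bases of Notch2, and no source used here says which exons the floxed allele removes. Whether the allele was recombined was not tested. Muscle markers were present in every library: Myod1 ran from 109 to 188 RPKM and Pax7 from 4.15 to 13.4. Of markers of other cells, 4 cartilage genes stood high in Notch2 cKO Em4 alone (Col2a1 at 55.4 RPKM against 0.65 to 7.62 elsewhere). The 10 interstitial fibroblast markers summed to 161 RPKM in WT Em2, 285 in WT Em4, 395 in Notch1 cKO Em8, 262 in Notch2 cKO Em3 and 415 in Notch2 cKO Em4. Of the 9 tested, 9 were above 0 in Notch1 cKO against WT (median 0.82) and 8 in Notch2 cKO against WT (median 0.64), with 6 at an unadjusted p under 0.05 in each and none passing (limma). The summed erythroid markers, nearly all alpha and beta globin, ran from 312 to 1250 RPKM with the highest sum in Notch1 cKO Em8. Of the 4 tested, Hba-a1 and Hba-a2 passed as lower in Notch2 cKO than in WT (limma adjusted p = 0.018 and 0.00459). In Notch2 cKO Em3 the heat shock genes Hspa1a (120 RPKM) and Hspa1b (165 RPKM) were high, against 2.11 to 9.24 elsewhere. Hspa1a and Hspa1b passed in Notch2 cKO against WT (limma adjusted p = 4.59e-05 and 5.41e-06), though high in this 1 library only. Endothelial markers summed to 3.95 to 6.90 RPKM and haematopoietic markers to 14.1 to 18.0. In these bulk samples, fewer cells of a type and less RNA per cell cannot be told apart, and the part of these other cells in the results that follow was not tested.

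Some of the promoters of these genes hold a sequence element that the choice of members did not use. E2F proteins bind a short element, searched here as TTTCCCGC, TTTCGCGC, TTTGCCGC or TTTGGCGC on either strand in the 250 bases before the start site, with promoters from RefSeq on GRCm38.p6. Of the 33 members 28 had a promoter entry, and 7 of the 28 (25%) held a match: Cdc6, Mcm5, Mcm6, Mcm7, Pola1, Rfc3 and Uhrf1. The share among 61 wider replication and G1/S genes was 24.6%, against 4.36% of 8880 genes tested, 2.16% of all 27025 genes in the promoter table and 1 of 18 mitosis genes. The general promoter element CCAAT was in 17 of the 28 (60.7%) and in 41.6% of the genes tested. A match is a description of the letters and not evidence of binding. The 3 stretches printed below lie outside annotated exons and upstream of their own gene, and show the element singly and in overlapping pairs. They are written 5′ to 3′ along the gene's strand, with the matches in capitals, and run from Mcm5 (chr8:75109336-75109387, plus strand) and Mcm6 (chr1:128359725-128359835, minus strand) to Pola1 (chrX:93632266-93632313, minus strand).
Mcm5: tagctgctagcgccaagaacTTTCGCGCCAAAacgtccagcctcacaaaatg
Mcm6: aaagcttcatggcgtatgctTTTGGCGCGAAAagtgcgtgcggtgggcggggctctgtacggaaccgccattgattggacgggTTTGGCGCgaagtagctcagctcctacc
Pola1: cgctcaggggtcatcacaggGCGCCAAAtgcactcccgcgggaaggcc
In Mcm5 and in the upstream run of Mcm6, a match on each strand overlaps to make a single capital block of 12 bases. Mcm6 has a second block nearer its start, so its 3 matches lie 39 to 110 bases before it. The match in Pola1 reads on the opposite strand.

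The replication program was expressed in every library. The median member had a mean of 54.9 RPKM against 9.95 for all genes tested, 9 members had a mean of at least 100 RPKM, and 2 were under 10. Levels below are RPKM, which are per length, so genes can be set beside each other only roughly. Each gene's level relative to its mean over the libraries still moved with length (Spearman correlation −0.467 in WT Em2, 0.318 in WT Em4). Summed RPKM also differed between libraries, from 612434 in Notch2 cKO Em4 to 769146 in WT Em2. All 33 are protein-coding genes, and positions refer to GRCm38 (GENCODE M21). Each run of 5 values is in the order WT Em2, WT Em4, Notch1 cKO Em8, Notch2 cKO Em3 and Notch2 cKO Em4. WT Em2 was the lowest of the 5 libraries for 9 members and for 41.5% of all genes tested.

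**Figure D1:**
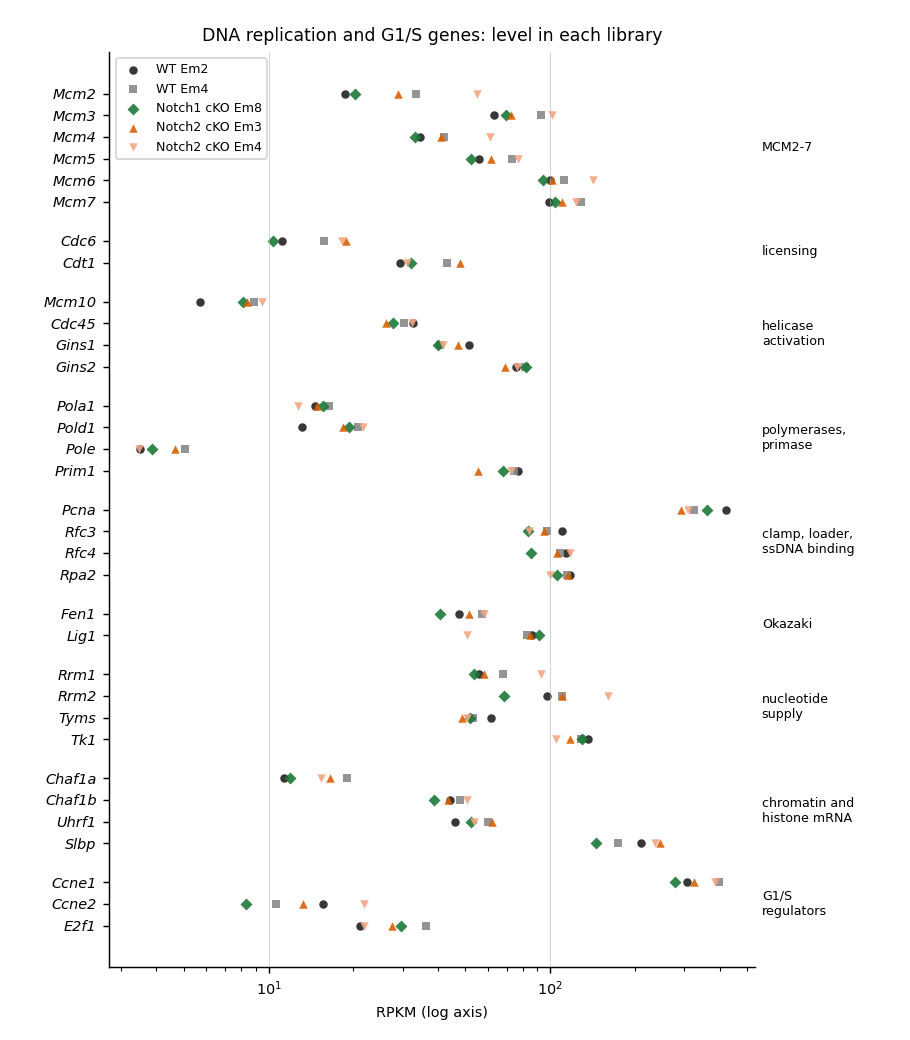
RPKM (log axis) of each of the 33 genes in each of the 5 libraries, grouped by role, with 1 point per library. Pcna and Ccne1 lie farthest right and Pole farthest left, and for Mcm2 to Mcm6 the Notch2 cKO Em4 point lies to the right of the other 4.

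Mcm2 to Mcm7 encode the 6 subunits of the replicative helicase, here called the MCM ring. Mcm2 (chr6:88883474-88898780, minus strand) stood at 18.7, 33.3, 20.3, 28.7 and 54.9 RPKM. It had the widest range of the 33, with its highest library 2.94 times its lowest; the WT pair spanned Notch1 cKO Em8 and Notch2 cKO Em3, and Notch2 cKO Em4 stood above them. Mcm4 stood at 34.4, 41.9, 33.02, 40.9 and 61.4 RPKM, Mcm6 at 100.1, 112, 94.4, 102 and 142 RPKM, and Mcm3 at 63.1, 92.5, 69.6, 72.5 and 102 RPKM. Mcm5 stood at 55.7, 73.02, 52.4, 61.8 and 77 RPKM, and Mcm7, the subunit of highest mean, at 99.1, 129, 104, 110.3 and 123 RPKM; Mcm6 was above it in WT Em2 and Notch2 cKO Em4. Notch2 cKO Em4 was the highest library for 5 of the 6, all but Mcm7, which was highest in WT Em4. All 6 were lower in WT Em2 than in WT Em4 (median difference −0.38 on the log2(RPKM + 1) scale) and all 6 were higher in Notch2 cKO Em4 than in Notch2 cKO Em3 (0.48). Among all genes tested, 30.8% were higher in WT Em2 than in WT Em4 (median −0.205). For Notch2 cKO Em4 against Notch2 cKO Em3 that share was 49% (median −0.01). Notch2 cKO Em4 also held the cartilage transcripts, whose part in these levels was not tested. Exons of Mcm7 overlap those of Cops6 and Ap4m1 on the other strand and hold Mir25 and Mir93, and no source used here says whether counting used the strand.

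The loading factors Cdc6 and Cdt1 were highest in Notch2 cKO Em3, unlike any gene of the MCM ring. Cdc6, the ATPase that recruits the helicase to the origin (chr11:98907801-98923940, plus strand), stood at 11.1, 15.7, 10.4, 18.9 and 18.2 RPKM, with both Notch2 cKO libraries above both WT libraries. Cdt1, its partner, which is destroyed once S phase begins, stood at 29.4, 42.99, 32.1, 47.9 and 31.02 RPKM; it was high in Notch2 cKO Em3 and WT Em4 and low in the other 3, across groups. Mcm10, which helps to open the loaded helicase, was among the lowest members at 5.71, 8.90, 8.09, 8.42 and 9.51 RPKM, and WT Em2 was the low library. Cdc45, the subunit that completes the active helicase, ranged from 26.1 RPKM (Notch2 cKO Em3) to 32.6 (WT Em2). Gins1 and Gins2 encode GINS subunits; Gins1 ranged from 40.0 (Notch1 cKO Em8) to 51.6 RPKM (WT Em2). Gins2 stood at 75.9, 81.5, 82.2, 69.1 and 76.3 RPKM, a narrow range in which Notch1 cKO Em8 lay just above WT Em4. Annotated exons of Gins2 share 2758 bases with Gse1 on the other strand, more than the 1038 bases over which it was counted, so how much of the overlap was counted is unknown.

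The catalytic polymerase genes were low and the primase gene high. Pola1 (polymerase alpha, which makes the first DNA with primase) ranged from 12.7 RPKM in Notch2 cKO Em4 to 16.3 in WT Em4. Pole (the leading strand polymerase epsilon) was the lowest member, from 3.46 in Notch2 cKO Em4 to 5.03 in WT Em4. Pold1 (the catalytic subunit of polymerase delta) stood at 13.2, 20.7, 19.4, 18.3 and 21.6 RPKM, and WT Em2 alone was low. Prim1, the catalytic subunit of primase, stood at 76.8, 74.3, 68.1, 55.3 and 72.9 RPKM, with both Notch2 cKO libraries below both WT libraries.

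Pcna, the sliding clamp that tethers polymerases (chr2:132249162-132253314, minus strand), had the highest mean of the members, with 421, 325, 359.9, 291 and 309.7 RPKM. WT Em2 was the highest library and both Notch2 cKO libraries were below both WT libraries. The clamp loader subunits, Rfc3 and Rfc4, ranged from 83.5 RPKM (Notch1 cKO Em8) to 110.3 (WT Em2) and from 85.6 (Notch1 cKO Em8) to 117 (Notch2 cKO Em4). Rpa2, a subunit of the complex that coats single-stranded DNA, was the steadiest member, from 99.6 (Notch2 cKO Em4) to 117 (WT Em2), its highest library 1.18 times its lowest. Fen1, the nuclease that trims Okazaki fragments, ranged from 40.8 (Notch1 cKO Em8) to 58.3 (Notch2 cKO Em4); 1909 bases of its annotated exons overlap the antisense gene Gm10143. Lig1, the ligase that joins those fragments (chr7:13277283-13311433, plus strand), stood at 85.98, 83.1, 91.2, 84.9 and 50.5 RPKM. Only Notch2 cKO Em4 was low for Lig1, and the other 4 libraries lay close together across all 3 groups.

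Rrm1 and Rrm2 encode the large and small subunits of ribonucleotide reductase, which makes deoxynucleotides. Rrm1 ranged from 53.5 RPKM (Notch1 cKO Em8) to 92.9 (Notch2 cKO Em4). Rrm2 (chr12:24708241-24714146, plus strand) stood at 97.7, 109.9, 68.9, 109.8 and 161 RPKM: Notch1 cKO Em8 was the low library, Notch2 cKO Em4 the high one, and the other 3 lay together. Tyms (thymidylate synthase) ranged from 48.6 (Notch2 cKO Em3) to 61.8 (WT Em2), and a pseudogene of it, Tyms-ps, has its own row in the table, so reads could be split between them. Tk1 (thymidine kinase) stood at 136, 129, 129.9, 118 and 105 RPKM, with both Notch2 cKO libraries lowest.

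Chaf1a and Chaf1b encode subunits of the factor that places histones on new DNA. Chaf1a ranged from 11.3 (WT Em2) to 19.0 (WT Em4), so the WT pair spanned every other library; its annotated exons share 4648 bases with Ubxn6 on the other strand, also more than its counted length of 3308 bases. Chaf1b ranged from 38.7 (Notch1 cKO Em8) to 50.8 (Notch2 cKO Em4). Uhrf1, which brings the maintenance DNA methyltransferase to new DNA, ranged from 45.8 (WT Em2) to 62.4 (Notch2 cKO Em3). Slbp, which binds the stem-loop of replication-dependent histone mRNAs (chr5:33634952-33652574, minus strand), stood at 210.3, 174, 145, 245 and 236 RPKM. The order of the groups for Slbp was Notch1 cKO lowest, then WT, then Notch2 cKO, without overlap.

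Ccne1 (cyclin E1) stood at 305, 398, 277, 325 and 385 RPKM, a mean of 338 RPKM close to the 341 of Pcna, and was above Pcna in 3 of the 5 libraries (WT Em4 and both Notch2 cKO libraries). Its paralog Ccne2 (cyclin E2, chr4:11191351-11204779, plus strand) stood at 15.7, 10.7, 8.29, 13.2 and 21.9 RPKM, a lower level in every library. Ccne2 was one of 3 members, with Mcm2 and Rrm2, whose highest library was over 2 times the lowest; its low library was Notch1 cKO Em8, and its exons overlap those of Ints8 over 609 bases. E2f1, an activator E2F, stood at 21.2, 36.2, 29.5, 27.5 and 21.9 RPKM, and again the WT pair spanned the others.

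Notch2 cKO against WT asks whether the program differed between libraries labelled Notch2 cKO and WT, which the Notch2 level did not set apart. None of the 33 members passed (limma, Benjamini-Hochberg over 11543 genes), where 62 genes (0.537%) did, and 1 member (Mcm2) had an unadjusted p under 0.05 against 7.63% of all genes. With limma voom on the recovered reads no member was called, but only 1 of all genes was, so that fit says little about the members. Mcm2 was 0.65 higher on the log2 scale (SE 0.28, 95% interval 0.09 to 1.21, limma adjusted p = 0.556), with the groups overlapping because WT Em4 was above Notch2 cKO Em3. Cdc6 was 0.46 higher (interval −0.13 to 1.04, limma adjusted p = 0.744) and Mcm4 0.39 higher (−0.14 to 0.92, limma adjusted p = 0.754). On the other side, Lig1 differed by −0.36 (−0.89 to 0.16, limma adjusted p = 0.775), Pcna by −0.30 (−0.86 to 0.26, limma adjusted p = 0.832) and Tk1 by −0.25 (−0.77 to 0.27, limma adjusted p = 0.850). Over the list, 20 differences were above 0 and 13 below, with a median of 0.043 against 0.14 for all genes, 68.1% of which were above 0. Groups did not overlap for 2 members on the higher side, Cdc6 and Slbp (28.3% of all genes), and for 5 on the lower side, Pcna, Tk1, Prim1, Rfc3 and Tyms (9.44%). For 21 members the WT libraries differed from each other by more than the 2 group means did. A difference of single libraries spreads more than a difference of means of 2 libraries. That count can therefore arise without any difference between groups, and no conclusion is drawn from it. All genes tested had the same order. Their median absolute difference was 0.321 between the WT libraries and 0.23 between group means, against 0.282 and 0.171 for the members.

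**Figure D2:**
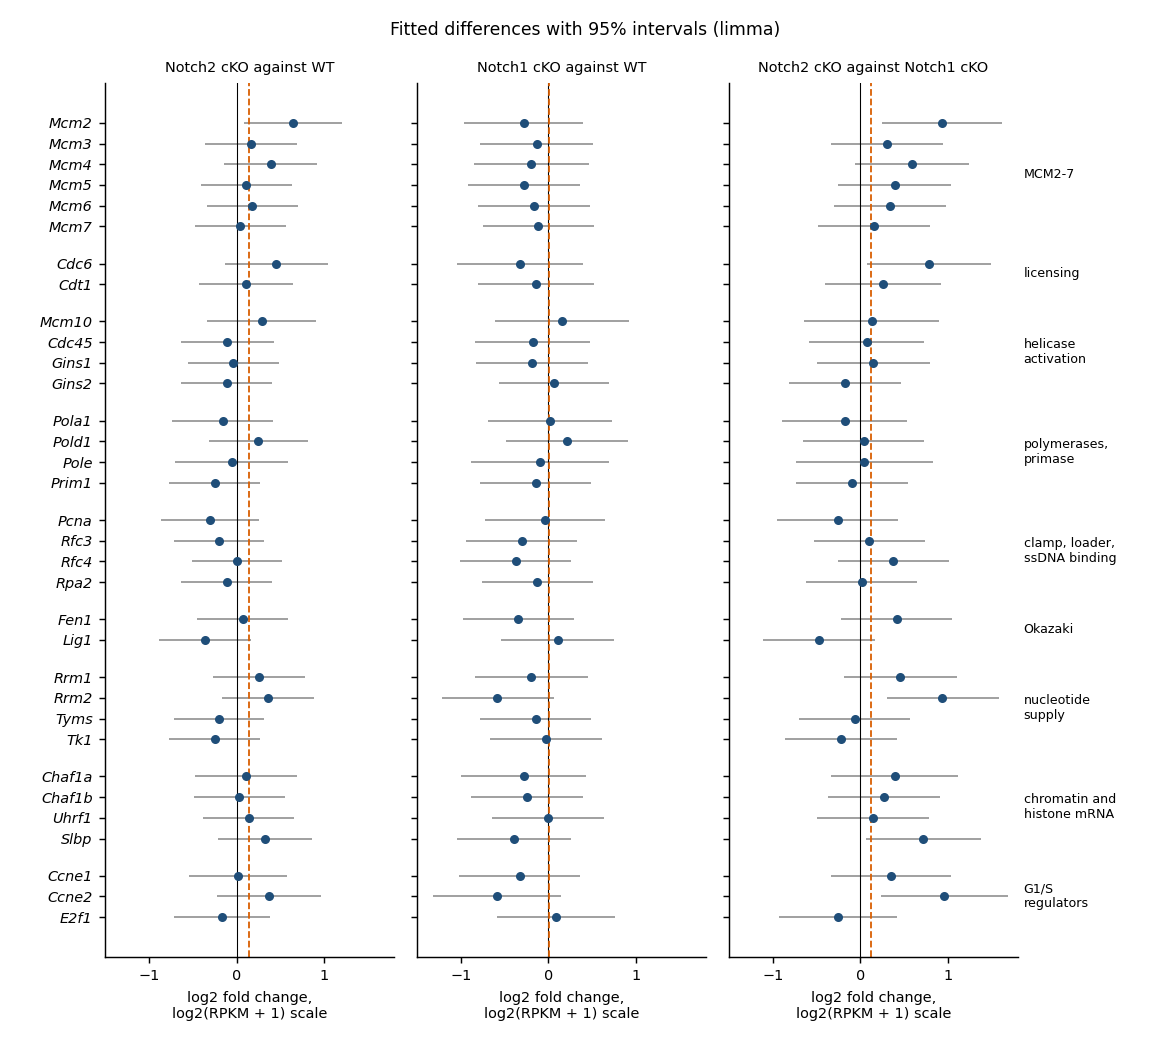
Fitted log2 fold change of each member on the log2(RPKM + 1) scale in the 3 comparisons, points with 95% intervals from limma. The dashed line is the median of all genes tested, 0.14, 0.009 and 0.12 from left to right; the only intervals clear of 0 are those of Mcm2 on the left, and of Mcm2, Cdc6, Rrm2, Slbp and Ccne2 on the right.

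By role, the 6 MCM ring genes were all above 0 in this comparison, with a median of 0.17, and the chromatin and histone mRNA genes were 4 of 4 above 0 (0.12), 2 of 4 after quantile normalization and 1 of 4 after median-of-ratios scaling. The clamp, loader and single-strand binding genes had 1 of 4 above 0 and a median of −0.16, and the polymerase and primase genes 1 of 4 and −0.11. The MCM ring median changed with the library left out. It was −0.041 without Notch2 cKO Em4 and 0.010 without WT Em2. It was 0.41 without Notch2 cKO Em3 and 0.37 without WT Em4. In the same order, the median of all genes was 0.14, 0.031, 0.121 and 0.259. Scaling libraries by the median of ratios (each library by the median ratio of its genes to their geometric mean over libraries) moved the median of all genes from 0.14 to −0.045, and with it 2 of the 6 MCM genes and 9 of the 33 members were above 0, the members' median then being −0.17. Relative to all genes the members' median was −0.13 under that scaling, and 10 of 33 lay above the median of all genes. After quantile normalization the members' median equalled that of all genes (0.003 for each), with 16 of 33 above it and 6 of 6 MCM ring genes above 0.

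Gene length moved with these differences. Between the 2 WT libraries, short members were higher in WT Em2 and long members in WT Em4 (Spearman correlation with length −0.50 over the 33 genes, −0.48 over all genes tested). In Notch2 cKO against WT the correlation was 0.38 over the members and 0.25 over all genes; the points share libraries, and genes are not replicates. The MCM ring genes are 2396 to 3589 bases long, by lengths recovered from the values, whereas Pcna, Rfc3 and Tk1 are 1260, 1215 and 1369 bases. Not every member below 0 is short: Tyms is 3808 bases long, Lig1 3520 and Pola1 5347. After the trend of level on length across all genes was removed from each library, the members' median in Notch2 cKO against WT was −0.13 with 9 above 0, and the MCM ring median −0.085 with 2 of 6 above 0. Mcm2 was then 0.39 and Cdc6 0.25 above WT, Pcna −0.31 and Lig1 −0.62 from it.

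**Figure D3:**
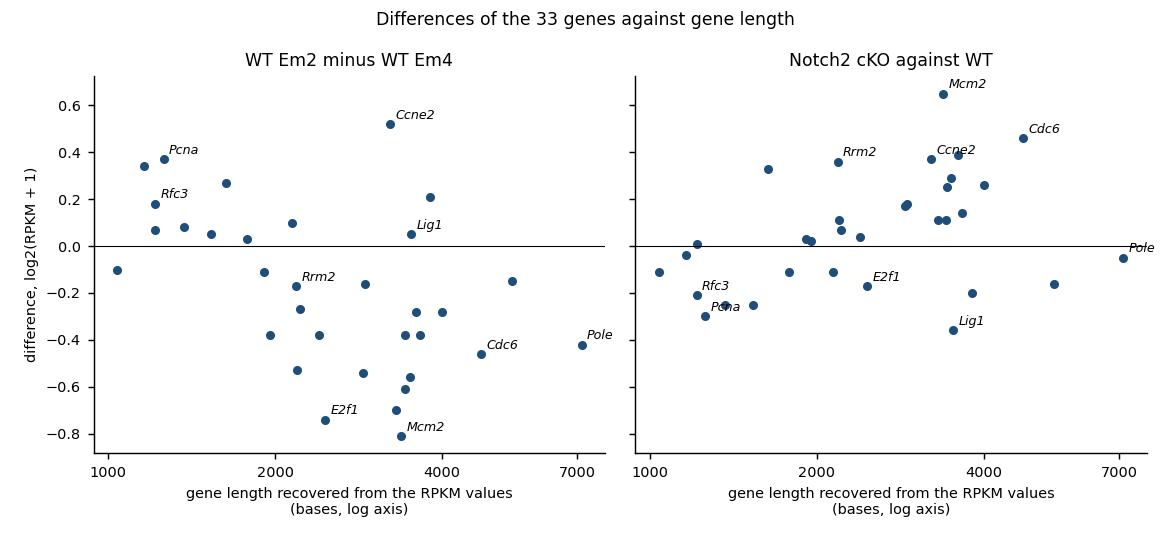
Difference of each of the 33 members on the log2(RPKM + 1) scale against gene length in bases (log axis): WT Em2 minus WT Em4 on the left, Notch2 cKO against WT on the right, 1 point per gene. Points slope down on the left and up on the right, with Lig1 below 0 on the right among the longer genes.

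Notch1 cKO against WT compares 1 library with 2, so its spread is borrowed from the other groups. No member passed (limma adjusted p = 1 for all 33), where 8 genes (0.0693%) did, and none had an unadjusted p under 0.05 (1.85% of all genes). Rrm2 had the smallest p, at −0.58 (SE 0.32, interval −1.22 to 0.06), followed by Ccne2 at −0.59 (−1.32 to 0.14) and Slbp at −0.40 (−1.05 to 0.26). Above 0 were Pold1 at 0.21 (−0.48 to 0.91), Mcm10 at 0.16 (−0.61 to 0.92) and Lig1 at 0.11 (−0.54 to 0.75). The list leaned to one side in this library: 27 of 33 differences were below 0, with a median of −0.16 against 0.009 for all genes, 51.5% of which were above 0. Notch1 cKO Em8 was below both WT libraries for 18 members (26.1% of all genes) and above both for 2, Lig1 and Gins2 (24.3%). It was the lowest of the 5 libraries for 14 members, against 21.5% of all genes. The members' median stayed below 0 without WT Em2 (−0.29) and without WT Em4 (−0.084), under median-of-ratios scaling (−0.24) and with the length trend removed (−0.17). In the same order, the median of all genes was −0.092, 0.1, −0.053 and −0.016. In the same comparison all 9 interstitial fibroblast genes tested and 8 of 10 dissociation stress genes were above both WT libraries, and the summed globin was highest of the 5 libraries; their part was not tested. Notch1 cKO Em8 also carries digits in its column name that neither WT library carries, so group and digits cannot be told apart here.

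Both cKO groups were compared directly to ask whether the libraries labelled Notch2 cKO and Notch1 cKO differ. No member passed (limma), where 56 genes (0.485%) did, and 5 members had an unadjusted p under 0.05 against 8.66% of all genes. Rrm2 was 0.94 higher in Notch2 cKO (SE 0.32, interval 0.30 to 1.58, limma adjusted p = 0.257), Mcm2 0.93 (0.25 to 1.62, limma adjusted p = 0.343) and Ccne2 0.96 (0.23 to 1.69, limma adjusted p = 0.373). Slbp was 0.72 and Cdc6 0.78 higher (limma adjusted p = 0.526 for each). On the lower side were Lig1 at −0.47 (−1.11 to 0.17, limma adjusted p = 0.728), Pcna at −0.26 and E2f1 at −0.26 (limma adjusted p = 0.887 for each). In all, 25 members were above 0 (61.8% of all genes) with a median of 0.16 against 0.12 for all genes. Both Notch2 cKO libraries were above Notch1 cKO Em8 for 20 members (47.7% of all genes) and below it for 7 (25.2%). All 6 MCM ring genes were among the 20, with a median of 0.37, which was 0.23 with 6 of 6 above 0 under median-of-ratios scaling and 0.11 with 5 of 6 after the length trend was removed. The 3 comparisons share libraries, so the low Notch1 cKO values of Rrm2, Ccne2 and Slbp enter both of its comparisons.

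**Figure D4:**
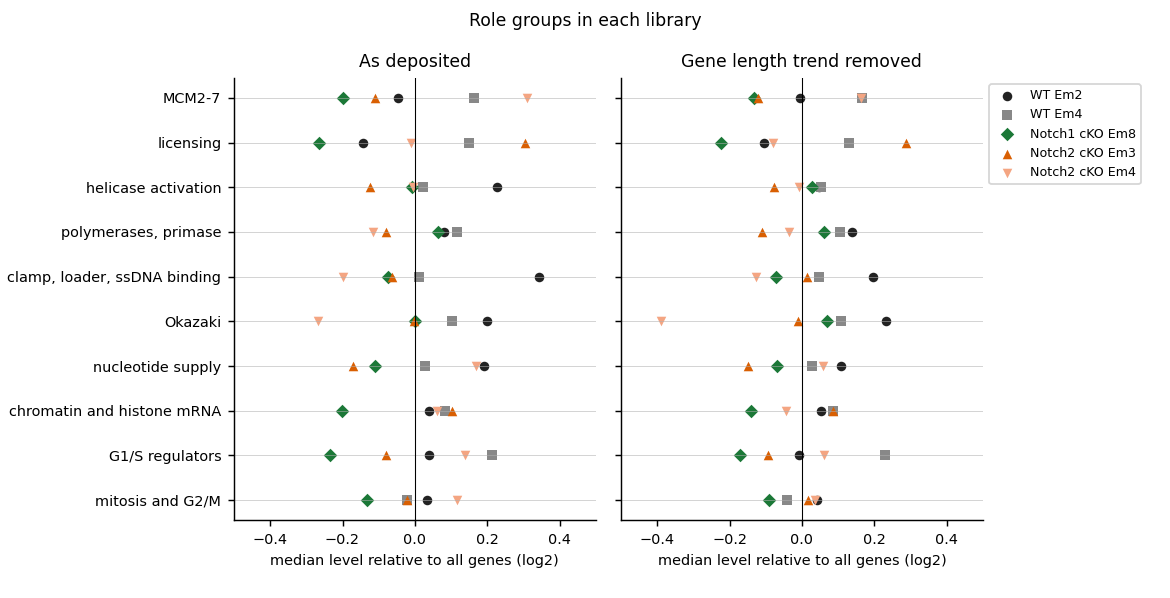
Median level of each role group in each library on the log2 scale, relative to the gene's mean over the 5 libraries and to the median of all genes, as deposited (left) and with the length trend removed (right). For the MCM ring, Notch2 cKO Em4 stands at 0.31 on the left and 0.16 on the right, where WT Em4 is at 0.17; Notch1 cKO Em8 is the lowest library for 4 of the 9 replication roles on the left.

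Set against all genes in each library, the members' median was −0.12 in Notch1 cKO Em8, −0.081 in Notch2 cKO Em3, 0.065 in Notch2 cKO Em4, 0.062 in WT Em2 and 0.066 in WT Em4. The Notch2 cKO libraries thus lay on either side of 0, and the WT libraries together. Notch2 cKO Em4 held the highest value of 13 members, against 33.3% of all genes, and WT Em4 the lowest value of none, against 8.8%. Libraries also share digits in their column names, whose meaning no source used here gives. Both libraries whose members' median was below 0, Notch1 cKO Em8 and Notch2 cKO Em3, carry the same digits. No library with a median above 0 carries them. With the length trend removed the medians split in the same way. They were −0.091 and −0.095, against 0.02 in Notch2 cKO Em4 and 0.071 in each WT library. The part of the digits in these medians was not tested. Within shared digits, Notch2 cKO Em4 minus WT Em4 was above 0 for 17 of 33 members (median 0.026, all genes 0.030), with Mcm2 at 0.70, Ccne2 at 0.97, Lig1 at −0.71 and E2f1 at −0.70. Notch2 cKO Em3 minus Notch1 cKO Em8 was above 0 for 23 members (median 0.16, all genes 0.13), with Cdc6 at 0.80, Slbp at 0.75 and Rrm2 at 0.67. Each is a difference of single libraries and has no test.

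The wider machinery was read from 73 further replication and G1/S genes, of which 72 were tested and Recql4, a helicase of origin firing, was below the filter at a mean of 0.974 RPKM. None passed in any comparison (limma), with 5, 0 and 6 at an unadjusted p under 0.05 in Notch2 cKO against WT, Notch1 cKO against WT and Notch2 cKO against Notch1 cKO, where all genes gave 7.63%, 1.85% and 8.66%. Above 0 were 51, 20 and 56 of the 72 (68.1%, 51.5% and 61.8% of all genes), with medians of 0.15, −0.065 and 0.23. Under median-of-ratios scaling 31, 8 and 42 were above 0, with medians of −0.047, −0.13 and 0.095. Tfdp1, the dimer partner of E2F proteins, stood at 35.7, 41.8, 27.95, 50.1 and 77.3 RPKM, so its groups did not overlap. It was 0.67 higher in Notch2 cKO than in WT (limma adjusted p = 0.466) and 1.13 higher than in Notch1 cKO (limma adjusted p = 0.115). Rnaseh2c, a subunit of the RNase that removes RNA from DNA, stood at 385, 249, 321, 194 and 164 RPKM and was −0.79 from WT in Notch2 cKO (limma adjusted p = 0.316). Orc4, of the origin recognition complex, stood at 15.2, 10.5, 8.995, 17.5 and 19.5 RPKM, 0.96 higher in Notch2 cKO than in Notch1 cKO (limma adjusted p = 0.349). Pold4, the small subunit of polymerase delta, was low at 2.33, 2.06, 4.42, 3.49 and 3.04 RPKM, 0.76 above WT in Notch1 cKO (limma adjusted p = 1). Of the 8 other origin recognition and licensing genes, 7 were above 0 in Notch2 cKO against WT, 0 in Notch1 cKO against WT and 8 in Notch2 cKO against Notch1 cKO, and 6, 0 and 7 under median-of-ratios scaling.

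Genes of the neighbouring steps were read beside the members. Of 20 mitosis genes, none passed (limma; 0, 0 and 1 with an unadjusted p under 0.05), and 16, 4 and 15 were above 0 in the same 3 comparisons, with medians of 0.17, −0.11 and 0.26; under median-of-ratios scaling the first count was 9 and its median −0.045. Ccnb1, the mitotic cyclin B1, stood at 77.99, 61.3, 56.3, 79.7 and 101 RPKM, lowest in Notch1 cKO Em8. Mki67, which marks cycling cells, stood at 22.5, 33.2, 30, 30.7 and 18.3 RPKM, lowest in Notch2 cKO Em4. That library was nonetheless the highest for 10 of the 20 mitosis genes and the lowest for 4. Cdkn1a (p21), which blocks entry into S phase, stood at 303, 343, 444, 484 and 389 RPKM, above both WT libraries in all 3 cKO libraries without passing (limma adjusted p = 0.754 for Notch2 cKO). Cdkn1c (p57), another inhibitor, known for its part in the cell cycle exit of muscle cells, was far above every member at 6548, 7339, 7246, 7349 and 7493 RPKM. Pax7 stood at 9.90, 11.96, 13.4, 10.7 and 4.15 RPKM and Myog, which marks cells committed to differentiate, at 1053, 1272, 944, 1655 and 1737 RPKM. Of the 12 muscle progenitor genes tested, 9 were above 0 in Notch2 cKO against WT (median 0.14), and 4 under median-of-ratios scaling (−0.063). Pax7 was lowest and Myog highest in Notch2 cKO Em4, and neither passed in Notch2 cKO against WT (limma adjusted p = 0.680 and 0.734). Of 12 differentiating muscle genes, 12 were above 0 in Notch2 cKO against WT with a median of 0.50 (11 and 0.28 under median-of-ratios scaling), and none passed (limma, 4 with an unadjusted p under 0.05).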

How the data were processed

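RNA of sorted cells went into 5 libraries made with a SMART-Seq v4 kit and sequenced from both ends on an Illumina HiSeq, per the labels' protocols. The authors deposited RPKM values for 27179 rows, 25873 with a gene name, per the file headers. Per the submitters' processing notes, bcl2fastq 2.20.0 and the build mm10 were used; no source used here gives the aligner, counter, annotation or use of strand. Unnamed rows (2.19% to 3.07% of a library's RPKM) were left out. Column names give the group but no replicate number.

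Fits used limma 3.58.1 in R 4.3.3 (lmFit, eBayes with a trend) on log2(RPKM + 1) over the 11543 genes averaging 1 RPKM or more, all 5 libraries, two-sided, Benjamini-Hochberg adjusted over all genes, threshold 0.05. Fold changes are on that scale, which understates low genes. The 2 residual degrees of freedom gained 103.8 from the prior, and the Notch1 cKO library, having no replicate, took the spread of the others. With 2 libraries a group, exact permutation can reach p = 0.333 at the smallest. Since the labels name no separate fetuses, p-values measure the spread between these libraries, which may be technical.

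Library totals and reads were recovered from the RPKM values: 98.2% of 10349 genes gave a length in whole bases within 0.02, and the reads summed to 99.31% to 99.34% of the totals. Positions and exon overlaps are from GENCODE M21 on GRCm38, matched by symbol, and promoters from RefSeq on GRCm38.p6. The scripts were tested on simulated data.

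The members and lists were chosen with earlier results of these data known, so lists are given as counts and medians without a test. Named in full are, per comparison, the 3 members of smallest p in each direction, the most abundant member of each role, the 2 wider genes of smallest p, and 7 context genes (Mki67, Ccnb1, Cdkn1a, Cdkn1c, Pax7, Myod1, Myog); Mcm3, Mcm5 and Mcm6 were added to complete the MCM ring, and the other members are given by range. Alternatives were other pseudocounts (0.1, 0.5), filters, scalings, removal of the length trend, limma voom on recovered reads, other variance settings and leaving out each library.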

Additional observations from a re-analysis of the deposited data

How the results depend on the processing

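No member passed the test under any of 43 pairs of a comparison and an alternative. Several alternatives called few or no genes in the whole table, as counted below, and those say little about the members. The smallest adjusted p among members over the alternatives (limma) ran from 0.146 to 1 in Notch2 cKO against WT, was 1 throughout in Notch1 cKO against WT, and ran from 0.0859 to 1 in Notch2 cKO against Notch1 cKO. The members' median in Notch2 cKO against WT (0.043) was −0.172 under median-of-ratios scaling and −0.128 with the length trend removed. When 1 library was left out, it ran from −0.081 (without WT Em2) to 0.201 (without WT Em4). In the same order, the median of all genes in those fits was −0.045, −0.008, 0.031 and 0.259. In Notch1 cKO against WT the members' median ran from −0.288 (without WT Em2) to −0.084. In Notch2 cKO against Notch1 cKO it was 0.015 under median-of-ratios scaling. Of 258 values of named members, 3 changed sign, each with 1 library left out: Lig1 in Notch2 cKO against WT (0.006 without Notch2 cKO Em4, −0.732 without Notch2 cKO Em3), and Pold1 and Mcm10 in Notch1 cKO against WT (−0.093 and −0.124 without WT Em2, 0.52 and 0.438 without WT Em4). The cause was not tested.

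The number of all genes called moved more. In Notch2 cKO against WT it was 62, and 0 with no filter, 33 with a mean of at least 5 RPKM, 4 after quantile normalization, 1 with the length trend removed, 1 with voom and 36 without a variance trend, 13 without WT Em2 and 278 without WT Em4. In Notch1 cKO against WT it was 8, and 15 with a pseudocount of 0.1, 22 under median-of-ratios scaling, 1 after quantile normalization, 3 with voom, 0 with no filter or without the length trend, 5 without WT Em2 and 1 without WT Em4. In Notch2 cKO against Notch1 cKO it was 56, and 86, 13, 14 and 26 under median-of-ratios scaling, quantile normalization, voom and no variance trend, and 0 with no filter or without the length trend.

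No paired analysis was possible because the columns carry no replicate number, and a fit with the shared digits as a term beside the groups would leave no residual degrees of freedom among 5 libraries. The differences within shared digits were chosen after seeing the data. With 1 or 2 libraries a group, limma's intervals allow either direction for members such as Pcna (−0.86 to 0.26 in Notch2 cKO against WT) and Mcm4 (−0.14 to 0.92), so differences of that size could not be shown.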
